A study of Mus musculus with 57 samples.

Results

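*Nppa*, *Bmp10*, *Myl4*, *Myl7* and *Sln* are 5 genes whose RNA marks the atria, the thin-walled chambers that receive blood above the ventricles. They were selected on measured values of these same hearts, with their levels already known, and were found by symbol among the 25416 genes of the acute table and the 54658 genes of the chronic table. All 5 were present in both tables. In the acute study the hearts were also divided by their *Myl4* level, at a limit of 100 CPM (the count of a gene for every 1000000 counts of that heart), and 17 of the 40 hearts lay at or above it. The division used *Myl4*, so the *Myl4* levels on its 2 sides are a description and not a finding.

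Doxorubicin (Doxo) is an anthracycline used against cancer that damages heart muscle, and nicotinamide mononucleotide (NMN) is a precursor of the cofactor NAD+. All mice were wild-type males of the C57BL6/J (B6) strain, with a different supplier in each study. In the acute study, mice bought at 9 weeks of age received vehicle (Ctrl, n = 14), a single intraperitoneal injection of 20 mg/kg Doxo (Doxo, n = 13), or that injection with 180 mg/kg NMN injected daily from 5 days before it (Doxo-NMN, n = 13), and hearts were collected on day 5. In the chronic study, mice aged 14 to 16 weeks received vehicle (Ctrl, n = 5), 5 injections of Doxo adding up to 20 mg/kg (Doxo, n = 6), or the same course with 500 mg/kg NMN daily in drinking water (Doxo-NMN, n = 6), and hearts were collected on day 60. The tissue of every library is labelled heart, and which parts of each heart were frozen is not given in the sources used here.

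Atrial and ventricular muscle cells use different versions of several contractile and secreted proteins. *Nppa* encodes atrial natriuretic peptide, a hormone that atrial muscle stores in granules and releases on stretch, and the adult ventricle makes little of it until it is under load, when *Nppa* and its sister *Nppb* return as part of a stress response. *Bmp10* encodes a secreted growth factor that, in the adult mouse, comes mainly from the right atrium. *Myl4* and *Myl7* encode the essential and the regulatory myosin light chain of atrial muscle, in the places that *Myl3* and *Myl2* take in the ventricle. *Sln* encodes sarcolipin, a small membrane protein that restrains the calcium pump SERCA in atrial muscle, as phospholamban does in the ventricle, and that is also made in skeletal muscle.

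The genes lie on 4 chromosomes of mm10 (GRCm38). *Nppa* (ENSMUSG00000041616, chr4:148000722-148002079, plus strand, 3 exons) starts 13516 bases downstream of the end of *Nppb* (ENSMUSG00000029019, chr4:147985788-147987205, plus strand, 3 exons). *Myl4* (ENSMUSG00000061086, chr11:104550663-104595753, plus strand) and *Myl7* (ENSMUSG00000020469, chr11:5896637-5898782, minus strand) lie far apart on chromosome 11. *Bmp10* (ENSMUSG00000030046) occupies chr6:87428994-87437677 and *Sln* (ENSMUSG00000042045) chr9:53850164-53854560, both on the plus strand with 2 exons.

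RefSeq sequence (GRCm38.p6) of the 250 bases before the start was found for 4 of the 5 genes, and 4 windows are shown. The neighbours *Nppa* and *Nppb* are printed since their levels parted in the acute hearts, and *Myl4* and *Myl7* since their levels moved together. Each sequence is the strand of the gene, 5′ to 3′. Capitals mark matches on either strand to GATAA (a core bound by GATA factors), AAGTG (bound by Nkx2-5), GGTGTGA (bound by T-box factors such as Tbx5), TATAAA (the TATA box) and the CArG box of serum response factor. Matches did not overlap one another. The windows are chr4:148000472-148000721 (*Nppa*), chr4:147985650-147985899 (*Nppb*), chr11:104550413-104550662 (*Myl4*) and chr11:5898783-5899032 (*Myl7*, minus strand). The start of *Nppb* in RefSeq lies inside the gene as given by the coordinates above, so the *Nppb* window reaches into that gene model.
Nppa: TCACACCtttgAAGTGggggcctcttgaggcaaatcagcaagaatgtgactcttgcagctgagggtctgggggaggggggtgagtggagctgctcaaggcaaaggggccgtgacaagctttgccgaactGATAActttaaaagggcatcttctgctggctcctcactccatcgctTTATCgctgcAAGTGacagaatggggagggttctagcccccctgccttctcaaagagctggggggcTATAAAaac
Nppb: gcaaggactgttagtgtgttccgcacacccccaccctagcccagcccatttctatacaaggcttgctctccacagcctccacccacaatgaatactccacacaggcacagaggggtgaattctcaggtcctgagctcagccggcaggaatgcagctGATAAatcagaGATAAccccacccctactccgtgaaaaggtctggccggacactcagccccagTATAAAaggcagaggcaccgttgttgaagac
Myl4: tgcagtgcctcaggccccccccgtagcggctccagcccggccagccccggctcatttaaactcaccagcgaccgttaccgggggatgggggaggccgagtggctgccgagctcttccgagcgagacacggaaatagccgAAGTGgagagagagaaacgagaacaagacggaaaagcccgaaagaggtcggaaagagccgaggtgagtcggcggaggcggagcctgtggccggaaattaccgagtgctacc
Myl7: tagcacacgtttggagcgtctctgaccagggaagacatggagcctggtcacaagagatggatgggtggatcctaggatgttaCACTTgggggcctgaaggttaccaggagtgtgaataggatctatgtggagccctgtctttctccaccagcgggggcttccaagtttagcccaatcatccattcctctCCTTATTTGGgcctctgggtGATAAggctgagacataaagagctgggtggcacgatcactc

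The *Nppa* window held 2 matches to GATAA, 2 to AAGTG, 1 to GGTGTGA and 1 to TATAAA. The *Nppb* window held 2 matches to GATAA and 1 to TATAAA, and none to AAGTG or GGTGTGA. Among 32851 windows of the same length before mouse genes, 22.6% held GATAA, 40.7% AAGTG, 3.33% GGTGTGA, 12.4% TATAAA and 1.47% a CArG box. *Myl4* had a single AAGTG match, whereas *Myl7* had 1 match to the GATA core, 1 to the Nkx2-5 core and 1 to the CArG box. The letters that *Myl4* and *Myl7* shared in these windows were thus the AAGTG core that many mouse genes also carry. *Myl4* has 8 annotated transcripts and its window lies before the outermost start. Which start its atrial RNA uses was not examined. These matches describe sequence only.

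Total counts were 32409622 to 52102850 per acute heart and 17769886 to 23862287 per chronic heart. At these depths 3 counts, taken as the smallest detectable level, correspond to 0.0576 to 0.0926 CPM in the acute and 0.126 to 0.169 CPM in the chronic study, which covers counting error only. All libraries carried ventricular muscle RNA, with *Myl2* between 3203 and 8658 CPM. The library labelled Doxo replicate 6 of the acute study had 445.8 CPM of *Myh7*, within the 346.0 to 513.9 CPM of the Ctrl hearts, while the other Doxo hearts had 3224 CPM or more. It lay below the *Myl4* limit, and without it the log2 difference of *Nppa* in Doxo vs. Ctrl over all acute hearts was −1.77 (edgeR adjusted p = 0.039).

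The *Myl4* limit divided the 40 acute hearts into 2 sets, although levels in the lower set rose towards it. Its highest hearts had 15.2, 35.9 and 88.1 CPM. A limit of 50 CPM in place of 100 CPM would put 18 hearts above, with 6 Doxo hearts among them. The 23 hearts below the limit had 1.32 to 88.1 CPM of *Myl4* with a median of 3.44 CPM. The 17 hearts above it had 262.5 to 1728 CPM with a median of 844.5 CPM. The heart just below the limit was Doxo replicate 13, with 88.1 CPM of *Myl4*, 90.1 CPM of *Nppa*, 41.7 CPM of *Myl7*, 54.5 CPM of *Sln* and 0.479 CPM of *Bmp10*. The heart just above it was Doxo replicate 11, with 262.5 CPM of *Myl4*, 358.6 CPM of *Nppa*, 112.1 CPM of *Myl7*, 92.8 CPM of *Sln* and 129.8 CPM of *Bmp10*. The upper set held 8 of 14 Ctrl, 5 of 13 Doxo and 4 of 13 Doxo-NMN hearts, shares that are given without a test since *Myl4* drew the limit. In bulk RNA of this kind, fewer atrial cells in a sample and less of the RNA per atrial cell cannot be told apart.

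**Figure D1:**
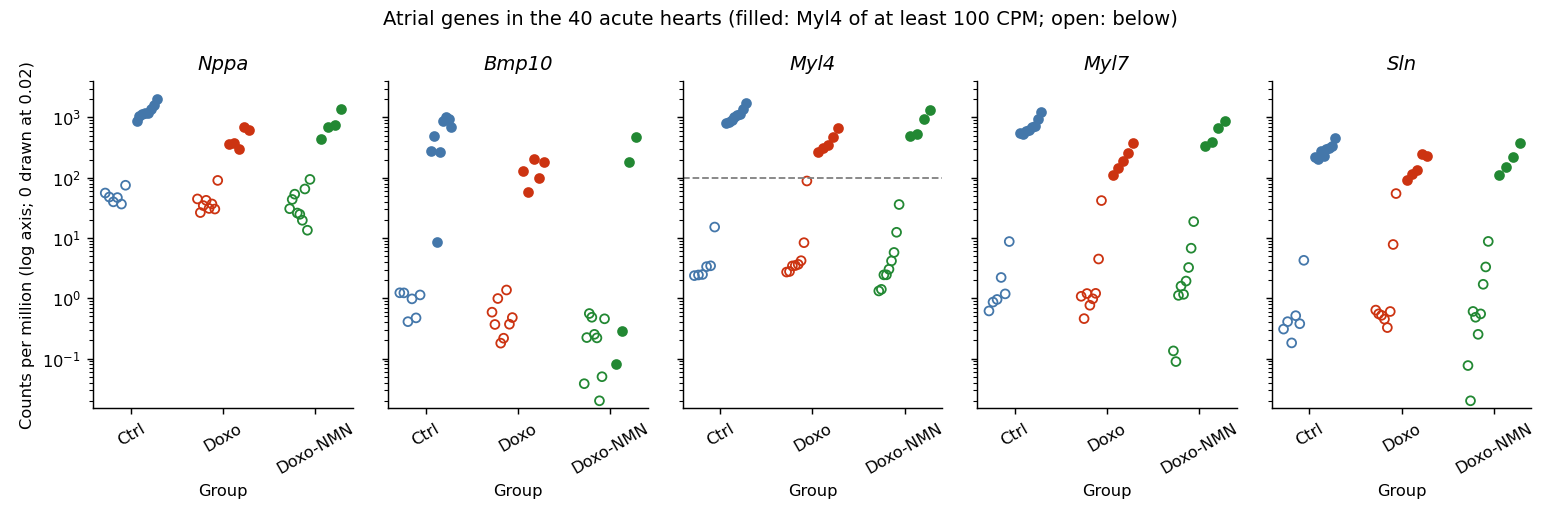
CPM (log axis) of each atrial gene in each of the 40 acute hearts, by group. Filled points are the 17 hearts with *Myl4* of at least 100 CPM and open points the 23 hearts below, the dashed line marks the limit, and a value of 0 is drawn at 0.02. In the filled hearts the 5 Doxo points of *Myl4* and *Myl7* lie below all 8 Ctrl points, and 3 filled points of *Bmp10* stand far below the rest.

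Per kilobase of merged exon, the medians of the 5 atrial genes in Ctrl hearts had the same order on both sides of the limit (*Nppa*, *Myl7*, *Myl4*, *Sln*, *Bmp10*), and *Nppb* changed its place among them. In the Ctrl hearts above it the medians were 1368 CPM per kb for *Nppa*, 1108 for *Myl7*, 223.1 for *Myl4*, 216.2 for *Sln* and 132.2 for *Bmp10*, with 194.6 for *Nppb*. *Nppa* (1000 to 2328) and *Myl7* (902.1 to 2076) overlapped, and so did *Myl4*, *Sln*, *Nppb* and *Bmp10* among themselves. In the Ctrl hearts below the limit *Nppb* led with a median of 273.7 CPM per kb, *Nppa* followed at 54.6 without overlap, and the other 4 genes had medians between 0.236 and 1.81. The value of *Myl4* per kilobase is the most dependent on annotation, since its merged exons join 8 transcripts.

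*Nppa* was the member that passed the test in the acute study as a whole. Its level was 36.5 to 2013 CPM in Ctrl (median 959.4), 26.4 to 690.3 CPM in Doxo (median 44.4) and 13.4 to 1352 CPM in Doxo-NMN hearts (median 53.3). The ranges overlapped, and each spanned both sides of the *Myl4* limit. In Doxo vs. Ctrl *Nppa* fell by 1.86 on the log2 scale (SE 0.749, edgeR adjusted p = 0.0272), and it was the only 1 of the 5 members called, where 30.1% of all 14240 genes tested were called (adjusted p under 0.05 and a change of at least 1.5-fold). The other members had log2 differences of −2.62 for *Bmp10* (adjusted p = 0.0889), −2.26 for *Myl7* (0.0960), −1.90 for *Myl4* (0.135) and −1.28 for *Sln* (0.322), with standard errors of 1.13 to 1.38. DESeq2 called 3 of the 5, adding *Bmp10* and *Myl7*.

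In Doxo-NMN vs. Doxo none of the 5 members was called (17.1% of all genes called), none had an unadjusted p under 0.05, and DESeq2 called none. The log2 difference of *Nppa* was 0.37 (SE 0.735, adjusted p = 0.696). In Doxo-NMN vs. Ctrl none of the 5 was called either (7.11% of all genes called), by edgeR or DESeq2, with none at an unadjusted p under 0.05 in edgeR, and *Nppa* was at −1.49 (SE 0.740, adjusted p = 0.134). Hearts from both sides of the *Myl4* limit entered these fits in every group.

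Above the *Myl4* limit, *Nppa* was lower in every Doxo heart than in any Ctrl heart. The 8 Ctrl hearts had 865.0 to 2013 CPM with a median of 1183 CPM. The 5 Doxo hearts had 295.8, 358.6, 376.4, 622.9 and 690.3 CPM. The 4 Doxo-NMN hearts had 441.8, 701.9, 741.6 and 1352 CPM, between both groups and overlapping each. *Nppa* followed *Myl4* in these hearts (r = 0.856 with group means taken out). *Myl4* drew the limit, so the tests that follow are not independent of the division. *Nppa* fell by 1.45 on the log2 scale in Doxo vs. Ctrl (SE 0.242, edgeR adjusted p = 5.96e-05). In Doxo-NMN vs. Doxo it rose by 0.73 (SE 0.269, adjusted p = 0.0382), a call that was lost in 5 of 17 fits that left out a heart, namely Doxo replicate 3, 7 or 11 or Doxo-NMN replicate 2 or 3 (adjusted p of up to 0.220).

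Below the limit, *Nppa* showed no difference that passed the test. It was 36.5 to 74.9 CPM in 6 Ctrl hearts (median 47.3), 26.4 to 90.1 CPM in 8 Doxo hearts (median 35.6) and 13.4 to 93.6 CPM in 9 Doxo-NMN hearts (median 30.6). The 3 ranges overlapped widely. The log2 difference in Doxo vs. Ctrl was −0.18 (SE 0.329, adjusted p = 0.662), and leaving out 1 heart moved it between −0.41 and −0.03. The difference of the Doxo effect between the hearts below and above the limit was 1.30 (log2, SE 0.446) and did not pass the test (interaction, adjusted p = 0.332), as for the other members, and 0.0843% of all genes passed it.

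*Nppb*, the ventricular partner of *Nppa* in the stress response, had the lower median in the hearts above the limit. It was 64.7 to 650.7 CPM below the limit (median 236.9) and 71.7 to 273.5 CPM above it (median 149.0). These ranges overlapped, unlike those of *Nppa*. *Nppb* differed by 0.34 in Doxo vs. Ctrl (log2, SE 0.295, adjusted p = 0.311) and by −0.11 in Doxo-NMN vs. Doxo (SE 0.301, adjusted p = 0.789) over all acute hearts. After group means were taken out, *Nppa* and *Nppb* correlated at r = 0.618 over the 23 hearts below the limit and at r = 0.0583 over the 17 above it, whereas *Nppa* and *Myl4* correlated at 0.432 and 0.856. By rank (Spearman's rho) the values were 0.575 and −0.00735 for *Nppa* and *Nppb*, and 0.114 and 0.828 for *Nppa* and *Myl4*. Each r is a description across hearts that share the scaling of their libraries.

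**Figure D2:**
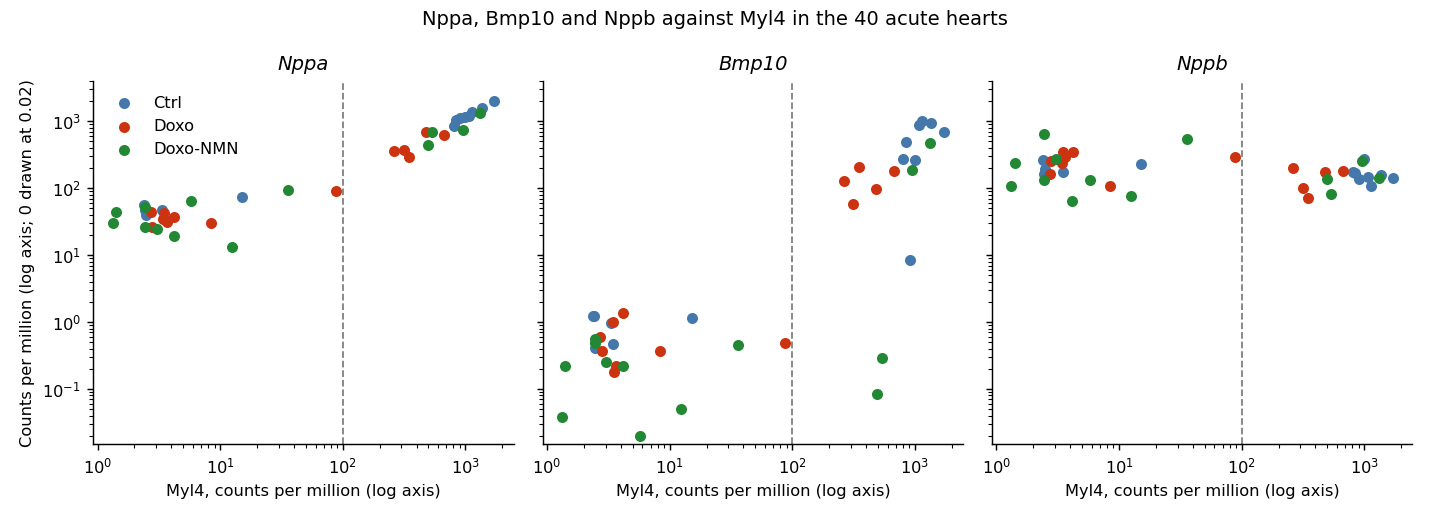
CPM (log axis) of *Nppa*, *Bmp10* and *Nppb* against CPM of *Myl4* (log axis) in the 40 acute hearts, coloured by group, with the dashed line at 100 CPM and a value of 0 drawn at 0.02. *Nppa* and most *Bmp10* points are high to the right of the line, 3 *Bmp10* points there are not, and the *Nppb* points on both sides overlap (medians of 236.9 CPM to the left and 149.0 CPM to the right).

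*Bmp10* separated the hearts above the limit in a way that no other member did. In 14 of the 17 it was 58.5 to 1011 CPM, and in the other 3 it was 8.48 CPM (Ctrl replicate 3), 0.291 CPM (Doxo-NMN replicate 3) and 0.0830 CPM (Doxo-NMN replicate 4). Those 3 hearts had 494.3 to 911.4 CPM of *Myl4* and 441.8 to 1123 CPM of *Nppa*, inside the range of the remaining 14. So 3 hearts rich in the remaining atrial RNAs had little or no *Bmp10*.

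*Bmp10* in the 5 Doxo hearts above the limit was 58.5, 98.1, 129.8, 182.5 and 204.4 CPM, and in the 8 Ctrl hearts 8.48 to 1011 CPM with a median of 593.6 CPM. No Ctrl heart lay within the Doxo range, as Ctrl replicate 3 was below it and the other 7 were above it. The log2 difference was −2.05 (SE 1.10, adjusted p = 0.114).

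Below the limit *Bmp10* was at most 1.37 CPM, and no heart had more than 54 counts. All of these counts were even, as most small counts of the acute study were, and halved counts were not tried below the limit. It was 0.410 to 1.23 CPM in Ctrl (median 1.06), 0.180 to 1.37 CPM in Doxo (median 0.426) and 0 to 0.559 CPM in Doxo-NMN hearts (median 0.223), with 3 counts or fewer in 3 of the 23 hearts. The Doxo-NMN range overlapped that of both other groups. *Bmp10* was called lower in Doxo-NMN vs. Ctrl (log2 −1.88, SE 0.550, adjusted p = 0.0376) and vs. Doxo (−1.33, SE 0.528, adjusted p = 0.0482). Of 23 fits that left out a heart, 14 kept the first call and 8 the second, with adjusted p of up to 0.0822 and 0.153.

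*Myl4* and *Myl7*, the atrial myosin light chains, varied together from heart to heart, with r = 0.980 above and 0.949 below the limit once group means were taken out. Above the limit, *Myl4* was 802.5 to 1728 CPM in Ctrl hearts. It was 262.5, 314.9, 349.9, 480.4 and 672.0 CPM in Doxo hearts. It was 494.3, 536.5, 950.0 and 1325 CPM in Doxo-NMN hearts. The Doxo and Ctrl hearts did not overlap, which is given without a test since *Myl4* drew the limit.

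*Myl7* above the limit was 532.2 to 1225 CPM in Ctrl hearts (median 653.5). In Doxo hearts it was 112.1, 141.9, 189.7, 251.7 and 379.8 CPM. In Doxo-NMN hearts it was 334.9, 386.9, 664.2 and 863.9 CPM. The Doxo hearts lay below every Ctrl heart, and 1 Doxo heart lay within the Doxo-NMN range. *Myl7* fell by 1.75 on the log2 scale in Doxo vs. Ctrl (SE 0.273, adjusted p = 3.01e-05) and rose by 1.33 in Doxo-NMN vs. Doxo (SE 0.299, adjusted p = 0.00263). Both calls held in all 17 fits that left out a heart, with adjusted p of up to 0.000181 and 0.0138. *Myl7* followed *Myl4*, which drew the limit, so these tests are not independent of the division.

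Of the 4 members tested above the limit (*Myl4* left aside), 3 were called lower in Doxo vs. Ctrl, where 28.5% of all 14743 genes were called in either direction. *Nppa* and *Myl7*, 2 of the 4, were called higher in Doxo-NMN vs. Doxo, where 16.1% of all genes were called. A limit of 100 CPM on *Myl7* put the same numbers above it, 8 Ctrl, 5 Doxo and 4 Doxo-NMN hearts. With group means taken out, *Myl7*, *Sln* and *Nppa* followed *Myl4* above the limit (r = 0.980, 0.935 and 0.856). The calls of these 3 genes are thus not independent of the division or of one another. In Doxo-NMN vs. Ctrl none of the 4 was called (4.06% of all genes called), with *Nppa* at an unadjusted p of 0.0106 and a log2 difference of −0.72 (SE 0.254, adjusted p = 0.0829). *Nppa* passed when Doxo-NMN replicate 2 (−1.05, adjusted p = 0.0161) or Doxo replicate 7 was left out.

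**Figure D3:**
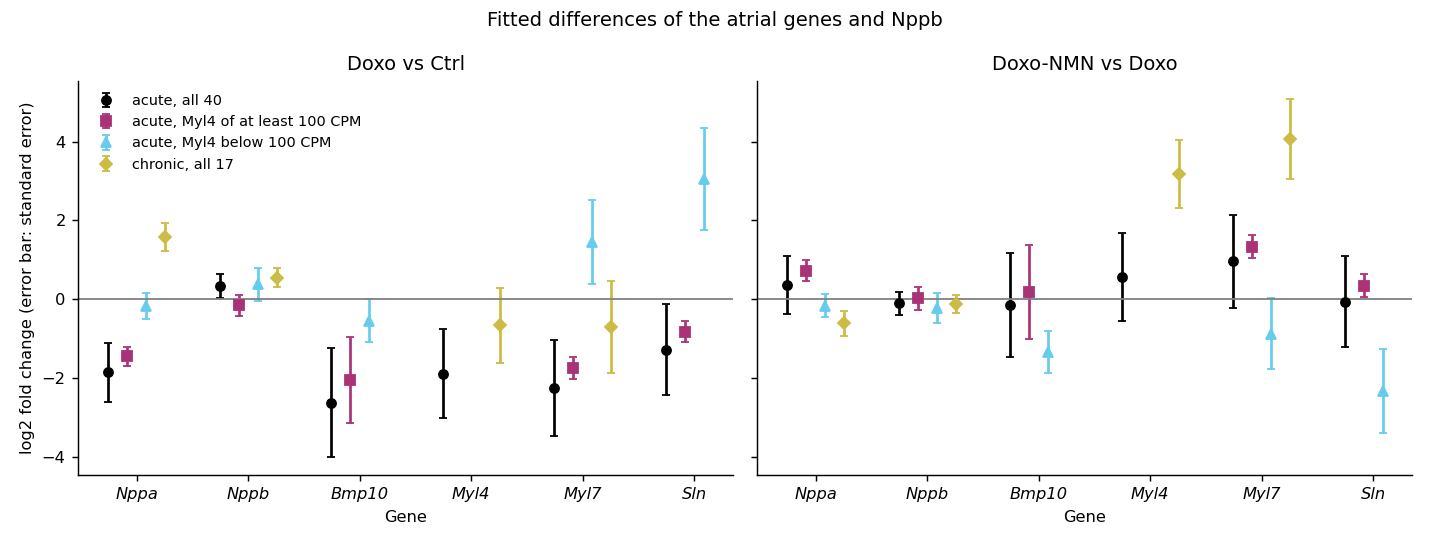
Fitted log2 fold changes with standard errors for the atrial genes and *Nppb*, in Doxo vs. Ctrl (left) and Doxo-NMN vs. Doxo (right). The points stand for all 40 acute hearts, the 17 above the *Myl4* limit, the 23 below it, and the 17 chronic hearts, and *Myl4* is left out of the divided fits. *Nppa* lies at −1.45 in the acute hearts above the limit and at 1.58 in the chronic hearts in Doxo vs. Ctrl.

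*Sln* above the limit was 204.1 to 452.6 CPM in Ctrl hearts (median 285.0). In Doxo hearts it was 92.8, 113.8, 132.0, 227.9 and 249.2 CPM. In Doxo-NMN hearts it was 112.5, 151.2, 221.0 and 379.2 CPM. Doxo overlapped both other groups. *Sln* fell by 0.82 on the log2 scale in Doxo vs. Ctrl (SE 0.260, adjusted p = 0.0109), the smallest of the 3 calls, and differed by 0.34 in Doxo-NMN vs. Doxo (SE 0.296, adjusted p = 0.372). *Sln* followed *Myl4* here too (r = 0.935 with group means taken out), so these tests are not independent of the division.

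The mix of atrial RNAs differed between the groups. As a share of the *Myl4* count of the same heart, *Sln* was 26.4% ± 2.29 (SD, n = 8) in Ctrl, 39% ± 7.33 (SD, n = 5) in Doxo and 25.7% ± 3.13 (SD, n = 4) in Doxo-NMN hearts above the limit. The Doxo hearts had 33.9, 35.3, 36.1, 37.7 and 51.9%. The Ctrl hearts had at most 30.4% and the Doxo-NMN hearts at most 28.6%, so Doxo did not overlap either. *Myl7* moved the other way, at 65.4% ± 3.27 (SD, n = 8) in Ctrl, 50.2% ± 5.99 (SD, n = 5) in Doxo and 68.8% ± 2.95 (SD, n = 4) in Doxo-NMN hearts. The highest Doxo heart had 56.5% and the lowest Ctrl and Doxo-NMN hearts 61.2 and 65.2%, again without overlap.

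*Nppa* as a share of *Myl4* was 117.6% ± 5.97 (SD, n = 8) in Ctrl, 115.4% ± 26.2 (SD, n = 5) in Doxo and 100.1% ± 22.7 (SD, n = 4) in Doxo-NMN hearts. The Ctrl hearts stayed within 107.8 to 124.8%. The Doxo hearts ranged from 84.5 to 143.7%, and the groups overlapped.

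**Figure D4:**
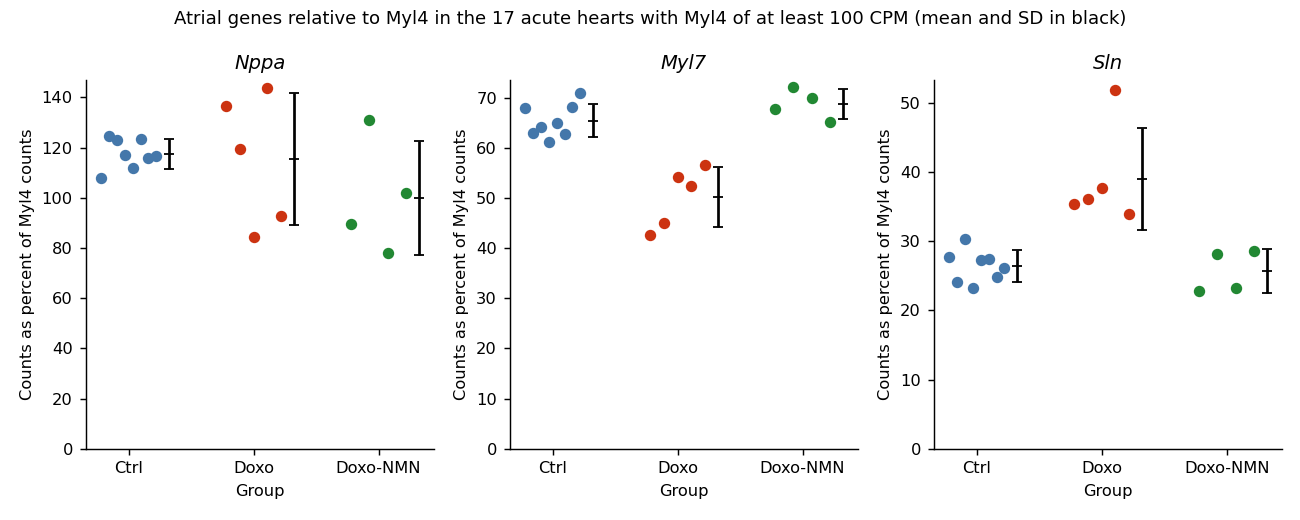
Counts of *Nppa*, *Myl7* and *Sln* as percent of the *Myl4* counts of the same heart, in the 17 acute hearts with *Myl4* of at least 100 CPM, by group, with mean and SD in black. Doxo hearts have lower *Myl7* (at most 56.5%) and higher *Sln* (at least 33.9%) than every Ctrl and Doxo-NMN heart, while *Nppa* overlaps.

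With log2 CPM of *Myl4* as a covariate in the hearts above the limit, *Sln* was higher in Doxo vs. Ctrl by 0.69 (log2, SE 0.181, adjusted p = 0.00856) and lower in Doxo-NMN vs. Doxo by 0.68 (difference −0.68, SE 0.154, adjusted p = 0.00682). *Sln* was the 1 of 4 members called in each, where 23.2 and 13.7% of all genes were called, and none was called in Doxo-NMN vs. Ctrl (3.49% of all genes called; *Sln* 0.00, SE 0.120). *Myl7* differed by −0.19 in Doxo vs. Ctrl (SE 0.111, adjusted p = 0.197) and by 0.33 in Doxo-NMN vs. Doxo (SE 0.0904, adjusted p = 0.0146), which is under 1.5-fold. *Nppa* differed by −0.19 (SE 0.231, adjusted p = 0.547) and −0.11 (SE 0.191, adjusted p = 0.694). The Ctrl and Doxo hearts do not overlap in *Myl4* here, so at equal *Myl4* the Doxo vs. Ctrl values rest on the fitted line between the groups. Without Doxo replicate 12, whose share of *Sln* was the highest, the *Sln* values were 0.47 and −0.49 (adjusted p = 0.0209 and 0.0153 in edgeR), both under 1.5-fold, and without Doxo-NMN replicate 2 the Doxo vs. Ctrl value was under it as well.

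In hearts below the limit that had *Myl4* over 5 CPM, chosen after their values were seen, *Sln* was 93.3 and 61.9% of *Myl4* in Doxo replicates 8 and 13, 28.1% in Ctrl replicate 13, and 26.6, 24.5 and 29.6% in Doxo-NMN replicates 9, 10 and 11. Both Doxo hearts lay above the 4 others. Over all hearts below the limit the share had medians of 14.2% in Ctrl, 17.5% in Doxo and 19.8% in Doxo-NMN, the groups overlapped, and the other 6 Doxo hearts had 8.96 to 23.4%. Over all hearts below the limit *Sln* was 0.182 to 4.26 CPM in Ctrl (median 0.394), 0.327 to 54.5 CPM in Doxo (median 0.578) and 0 to 8.78 CPM in Doxo-NMN (median 0.552). It was called higher in Doxo vs. Ctrl (log2 3.05, SE 1.30, adjusted p = 0.0494) and was the 1 of 4 members called, where 30.0% of all genes were called. This call was kept in 10 of 23 fits that left out a heart and had an adjusted p of up to 0.602, with log2 values from 0.66 without Doxo replicate 13 to 4.52 without Ctrl replicate 13. In Doxo-NMN vs. Doxo and vs. Ctrl *Bmp10* was the 1 of 4 members called, where 16.3 and 4.03% of all genes were called.

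Markers of other tissues moved with the division. Summed mesothelium markers were 3.70 to 39.9 CPM below the limit and 13.4 to 94.6 CPM above it, with medians of 7.25 and 52.96 CPM. Vessel smooth muscle markers had medians of 193.0 and 306.5 CPM, and the ganglion markers 1.17 and 4.05 CPM. Above the limit the vessel markers were 295.0 to 487.1 CPM in Ctrl, 190.2 to 326.6 CPM in Doxo and 201.8 to 358.6 CPM in Doxo-NMN hearts. The mesothelium markers there were 33.9 to 94.6 CPM in Ctrl (median 60.1), 13.4 to 57.3 CPM in Doxo (median 33.3) and 31.3 to 92.3 CPM in Doxo-NMN hearts (median 56.97). The ganglion markers had medians of 6.07, 1.83 and 2.78 CPM in the same order of groups. All 3 sums above the limit had a lower median in Doxo than in Ctrl hearts. Below it the vessel median was also lower in Doxo (150.1 against 220.6 CPM), as was the ganglion median (0.631 against 3.24 CPM). The mesothelium median there was higher in Doxo (10.8 against 7.89 CPM). The part of these markers in the group differences of the atrial genes was not tested. Summed skeletal muscle markers, which matter for *Sln*, were 2.51 to 7.96 CPM over all acute hearts. Lung markers were at most 3.91 CPM, with *Sftpa1* at 0 in all hearts below the limit, and fat markers were 21.8 to 107.3 CPM. Summed ventricular markers were 12380 to 24960 CPM below the limit and 9553 to 23270 CPM above it. These sums include *Myh7*, which rose with Doxo, and both highest values were Doxo hearts. In Ctrl hearts the sums were 12600 to 13420 CPM below the limit and 9553 to 11730 CPM above it, without overlap.

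The genes most like *Myl4* over the 40 acute hearts, by Pearson's r of log2 CPM, were *Myl7* (0.993), *Mybphl* (0.993), *Sln* (0.986), *Dkk3* (0.983), *Tmem163* (0.978), *Rxfp1* (0.978), *Sbk3* (0.977), *Fgf12* (0.972), *Lmntd1* (0.965) and *Fras1* (0.958). *Mybphl* encodes a myosin-binding protein of atrial muscle and *Rxfp1* the receptor of relaxin. Within the 17 hearts above the limit *Rxfp1* (0.989), *Myl7* (0.988), *Mybphl* (0.988) and *Tmem163* (0.986) stayed closest, *Sln* had 0.914 and *Dkk3* 0.306. In the 17 chronic hearts *Mybphl* (0.939), *Myl7* (0.921) and *Dkk3* (0.840) were nearest, followed by *Nov*, *Nipal2*, *Col4a6*, *Marveld1*, *Gm11739*, *Cytl1* and *Csrp2* (0.834 to 0.757). Nearest to *Nppa* in the 23 hearts below the limit, with group means taken out, were *Sars* (0.815), *Lmod1* (0.761), *Ddr1* (0.718), *Ankrd13b* (0.697) and *Plcd1* (0.673). No r carries a test.

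Of 15 genes of the natriuretic peptide pathway 14 were tested in the acute study, and in Doxo vs. Ctrl 4 were lower and 2 higher (30.1% of all genes called), with a median log2 difference of −0.14 against a median of −0.00157 over all genes. These counts include *Nppa* itself. *Pcsk6*, a protease that activates Corin, the convertase of pro-*Nppa*, fell by 1.72 (SE 0.214) from 59.9 ± 4.46 CPM in Ctrl (SD, n = 14) to 17.3 ± 12.5 CPM in Doxo (SD, n = 13). *Mme*, the neprilysin that degrades the peptide, fell by 0.77 (SE 0.160). *Pde9a*, a phosphodiesterase that removes its second messenger cGMP, rose by 1.52 (SE 0.256) from 2.71 ± 0.881 to 7.12 ± 4.33 CPM, and *Prkg1*, the kinase that cGMP activates, rose by 0.73 (SE 0.108). With NMN, in Doxo-NMN vs. Doxo, *Pcsk6* rose by 1.24 (SE 0.214) and *Pde9a* fell by 1.64 (SE 0.263), the 2 of 14 called (17.1% of all genes called). Their edgeR adjusted p were between 1.15e-08 and 6.71e-05.

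Of 16 other atrial markers, all tested, 7 were lower and 1 higher in Doxo vs. Ctrl (30.1% of all genes called), with a median log2 difference of −0.84 against −0.00157 over all genes. Their summed level was 1329 to 1475 CPM in Ctrl hearts below the *Myl4* limit and 3510 to 6112 CPM in those above it. In Doxo hearts below the limit it was 1339 to 3447 CPM. Their RNA was thus not restricted to hearts rich in *Myl4*, and their calls do not measure atrial RNA alone. *Kcna5*, the channel of the ultrarapid potassium current, fell by 0.91 (SE 0.142) from 25.1 ± 4.58 to 12.7 ± 4.73 CPM. *Kcnj3* and *Kcnj5*, which together form the acetylcholine-gated potassium channel, fell by 1.06 (SE 0.242) and 0.63 (SE 0.159). *Clu*, a secreted chaperone, rose by 1.06 (SE 0.175). *Kcna5* (1.06, SE 0.144) and *Kcnj3* (0.63, SE 0.244) rose in Doxo-NMN vs. Doxo, and *Clu* fell by 0.90 (SE 0.178), the 3 of 16 called (17.1% of all genes called). Above the *Myl4* limit 6 of 16 were lower and 1 higher in Doxo vs. Ctrl (28.5% of all genes called), and 5 were higher and 1 lower in Doxo-NMN vs. Doxo (16.1% of all genes called). *Mybphl* was called in both, at 106.5 ± 31.8 CPM in Ctrl (SD, n = 8), 32.5 ± 13.7 in Doxo (SD, n = 5) and 74.1 ± 32.9 in Doxo-NMN hearts (SD, n = 4). Below it 5 were lower and 3 higher in Doxo vs. Ctrl (30.0% of all genes called), with a median of 0.20.

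The counts that follow stand beside 30.1% of all genes called in Doxo vs. Ctrl and 17.1% in Doxo-NMN vs. Doxo. Among 6 tested sinus node markers only *Hcn4*, the pacemaker channel, was called, lower in Doxo (−1.19, SE 0.210) and higher in Doxo-NMN vs. Doxo (0.72, SE 0.212). Of 10 cardiac factors of the atria 1 was lower in Doxo, *Nr2f1* (−0.78, SE 0.232). Of 15 tested myosin light chains and partners 3 rose and 3 fell, and among the heavy chains on that list *Myh7* rose by 4.48 (SE 0.438) and *Myh6* fell by 0.69 (SE 0.178). Of 6 tested SERCA pumps and regulators *Mrln*, at 0.521 ± 0.204 CPM in Ctrl (SD, n = 14), was the 1 called, and it fell by 0.995 (SE 0.308, log2). Of 23 tested genes of the BMP pathway, 4 passed in Doxo vs. Ctrl. The ligand *Bmp4* rose by 1.88 (SE 0.261) and *Smad1*, which carries its signal, by 1.45 (SE 0.191), whereas *Eng*, a co-receptor for *Bmp10*, fell by 0.78 (SE 0.128) and *Bmp7* by 1.24 (SE 0.245).

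Of 9 tested stress genes of the ventricle, 6 rose and 1 fell in Doxo vs. Ctrl, with a median log2 difference of 1.65 (30.1% of all genes called), and 5 fell in Doxo-NMN vs. Doxo (17.1% of all genes called). *Fhl1* rose by 1.65 (SE 0.224) and *Xirp1* by 1.78 (SE 0.244), and *Acta1*, skeletal actin, fell by 2.32 (SE 0.335). These counts include *Nppb*, which was not called.

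In the chronic study no heart reached the *Myl4* limit. *Myl4* was 1.40 to 7.15 CPM in 15 of the 17 hearts, 14.1 CPM in Doxo-NMN replicate 5 and 88.3 CPM in Doxo-NMN replicate 4. The last heart also had the highest *Myl7* (70.6 CPM) and *Sln* (26.6 CPM), whereas its *Bmp10* was 0.0974 CPM and its *Nppa*, at 122.4 CPM, was the lowest of its group. *Sln* had 3 counts or fewer in 12 of the 17 hearts and *Bmp10* in 11, and neither passed the filter on low counts, which left 3 of the 5 members to test.

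*Nppa* in the chronic study was higher in most treated hearts than in Ctrl, without passing the main test. It was 65.1, 79.8, 81.0, 85.9 and 203.2 CPM in Ctrl hearts. It was 123.0 to 519.7 CPM in Doxo hearts (median 305.3) and 122.4 to 240.1 CPM in Doxo-NMN hearts (median 209.6). Apart from Ctrl replicate 1, every Ctrl heart lay below every treated heart. The log2 difference in Doxo vs. Ctrl was 1.58 (SE 0.347, unadjusted p = 0.000206 in edgeR, adjusted p = 0.192), and none of the 3 members tested was called, where 0.0602% of all 14960 genes were called (adjusted p under 0.05). DESeq2 called *Nppa* (1.59, SE 0.387, adjusted p = 0.0315), and so did edgeR without the filter on low counts (adjusted p = 0.00241) and 2 of the 17 fits that left out a heart, among them the one without Ctrl replicate 1 (1.97, adjusted p = 0.0183).

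*Nppa* in Doxo-NMN hearts differed by 0.97 from Ctrl (SE 0.341, adjusted p = 0.924) and by −0.61 from Doxo (SE 0.319, adjusted p = 0.999). In Doxo-NMN vs. Ctrl none of the 3 members was called (0.0401% of all genes called), with all 3 at an unadjusted p under 0.05 and none called by DESeq2. In Doxo-NMN vs. Doxo none was called (0% of all genes called, 441 genes and 2 members, *Myl4* and *Myl7*, at an unadjusted p under 0.05, and none by DESeq2). The *Myl4* and *Myl7* values there came down from 3.18 and 4.08 to 1.16 and 1.99 (log2) without Doxo-NMN replicate 4. Against Ctrl, the *Myl4* and *Myl7* values without that heart were 0.50 and 1.28, the lowest of the 17 fits that left out a heart.

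*Nppb* in the chronic hearts was 310.9 to 607.1 CPM in Ctrl (median 376.8), 362.2 to 910.3 CPM in Doxo (median 641.4) and 294.3 to 818.7 CPM in Doxo-NMN (median 597.3). The groups overlapped. Its log2 difference in Doxo vs. Ctrl was 0.55 (SE 0.239, adjusted p = 0.618). With group means taken out, *Nppa* and *Nppb* correlated at r = 0.773 and *Nppa* and *Myl4* at −0.331 over the 17 hearts.

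**Figure D5:**
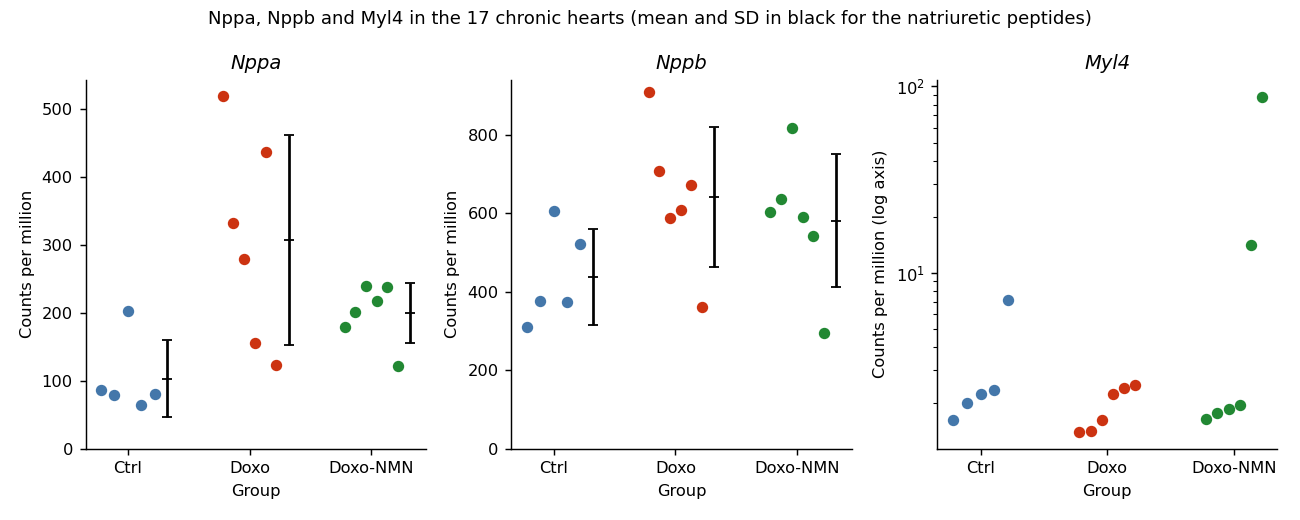
CPM of *Nppa* and *Nppb* (linear axes from 0, mean and SD in black) and of *Myl4* (log axis) in each of the 17 chronic hearts, by group. Of the 5 Ctrl hearts 4 lie at 65.1 to 85.9 CPM of *Nppa*, below all treated hearts, and 1 Doxo-NMN heart stands out in *Myl4* at 88.3 CPM.

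Summed skeletal muscle markers were 478.5 to 2713 CPM in the chronic hearts, against at most 7.96 CPM in the acute ones. Ctrl replicate 1, the heart with the most, was also the Ctrl heart with the most *Nppa*, and its *Sln* was 0.165 CPM. The part of skeletal muscle RNA in the chronic values was not tested. Across the fixed lists no gene was called in any chronic comparison.

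The fitted Doxo effect on *Nppa* differed between the studies when all Ctrl and Doxo hearts were used. The acute hearts then came from both sides of the *Myl4* limit and the chronic hearts only from below it. The chronic effect exceeded the acute effect by 3.44 (log2, SE 1.17, interaction test in edgeR, adjusted p = 0.0364), and 19.3% of 14965 genes passed this test. Against the acute hearts below the *Myl4* limit, a comparison of hearts with little *Myl4* in both studies, the difference was 1.76 (SE 0.468, adjusted p = 0.0389), and 5.15% of genes passed. The first value kept its call in 32 of 38 fits that left out a heart (adjusted p of up to 0.0688) and the second in 9 of 25 (up to 0.0711). The acute Doxo effect on *Nppa* below the limit was not called alone, and neither was the chronic effect in the main fit. *Nppb* differed by 0.21 (SE 0.398, adjusted p = 0.727). Age, supplier of the mice, sequencing site, time and number of injections differ between the studies and cannot be told apart from the regimen. Only the acute study held hearts above the *Myl4* limit. Summed skeletal muscle markers were 478.5 CPM or more in chronic and at most 7.96 CPM in acute hearts. The part of these 2 differences in the *Nppa* values was not tested.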

How the data were processed

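RNA-seq was measured in 40 acute and 17 chronic mouse hearts. The authors deposited 1 table of raw counts per gene for each study, made from poly(A) single-end reads with STAR 2.7.3a (as the labels give it) and featureCounts 2.0.0 on mm10, and the 2 studies were sequenced at different sites. Groups came from the labels. The 5 atrial genes, the gene lists and the *Myl4* limit were chosen with earlier results of these data known. Genes named from the lists were those called with the smallest adjusted p. Genes named for likeness had the highest Pearson's r with *Myl4* (10 per study) or *Nppa* (5).

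CPM was the count for every 1000000 counts of the column. edgeR 4.0.16 (R 4.3.3) fitted the 3 groups of a study together with TMM factors after filterByExpr, tested by the quasi-likelihood F test with Benjamini-Hochberg adjustment over all genes. Calls required adjusted p under 0.05 and, in acute fits, at least 1.5-fold. The Doxo effects of both studies or of both sides of the limit were compared by an interaction term. Hearts were separate animals, and p-values measure only the spread between these hearts. On simulated data, 186 of 199 changed genes were recovered in the acute design (14183 genes) and 166 of 194 in the chronic one (14813 genes). The planted changes had fitted medians of 1.02 and −1.02 (log2, acute) and 0.986 and −1.04 (chronic). In addition, 1 and 9 unchanged genes were called. The simulated hearts held no division as in *Myl4*, so this recovery does not apply to the atrial genes. In the acute table a median of 73.6% of counts from 1 to 20 were even (chronic 40.3%), so halved counts were also tried.

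Alternatives were DESeq2 1.42.0, RLE factors, no filter, only the groups compared, a replicate block, *Myl4* as covariate, each side of the limit and leaving out each heart. Python 3.11.15, pandas 2.3.3, scipy 1.17.1 and matplotlib 3.10.9 made summaries and plots. The values of 1 further marker gene are not reported here.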

Additional observations from a re-analysis of the deposited data

Results flagged for a closer look

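Of 18 sets of chronic hearts checked (the 5 atrial genes and *Nppb* in 3 groups), 8 held a heart that stood apart from the others of its group by Dixon's criterion, where chance gives about 1 in 20. Ctrl replicate 1 had 203.2 CPM of *Nppa*. Ctrl replicate 5 stood above its group in *Myl4* (7.15 CPM), *Myl7* (4.39 CPM), *Sln* (2.20 CPM) and *Bmp10* (0.225 CPM), and Doxo-NMN replicate 4 in *Myl4* (88.3 CPM), *Myl7* (70.6 CPM) and *Sln* (26.6 CPM). The *Bmp10* value of Ctrl replicate 5 was 4 counts, near the smallest detectable level, against 0 or 1 in the other Ctrl hearts. The rate of 1 in 20 need not hold for such counts. The sets share hearts and are not independent. The fitted Doxo effect on *Nppa* differed between the studies by 3.44 (log2, chronic minus acute, with acute hearts from both sides of the *Myl4* limit). Against the acute hearts below the limit it differed by 1.76. Leaving out a heart removed the first call in 6 of 38 fits and the second in 16 of 25. The chronic effect itself was not called in the main fit.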

How the results depend on the processing

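Counts of atrial genes called changed with the setting. They are of 5 genes over all acute hearts, of 3 in the main chronic fits, and of 4, without *Myl4*, above and below the limit and with the covariate. In acute Doxo vs. Ctrl the count was 1, against 3 with DESeq2, 3 above the *Myl4* limit and 2 with *Myl4* as covariate. In Doxo-NMN vs. Doxo it was 0, against 2 above the limit, 1 below it and 1 with the covariate, and in Doxo-NMN vs. Ctrl 0, against 1 below the limit and 1 with the covariate. In chronic Doxo vs. Ctrl it was 0, against 1 (*Nppa*, 1.59 in both) without a filter and with DESeq2. Below the limit, log2 differences were −0.18 (*Nppa*), 1.45 (*Myl7*) and 3.05 (*Sln*) in Doxo vs. Ctrl, −0.16 (*Nppa*) and −0.87 (*Myl7*) in Doxo-NMN vs. Doxo, and 0.58 (*Myl7*) and 0.72 (*Sln*) in Doxo-NMN vs. Ctrl. Above it, Doxo-NMN vs. Doxo gave 0.73 (*Nppa*), 0.34 (*Sln*) and 0.18 (*Bmp10*). With the covariate over all acute hearts, *Sln* was 0.89 in Doxo vs. Ctrl (adjusted p = 0.000663). Its value for Doxo-NMN against Ctrl was 0.13, where *Myl7* was 0.0889. The cause of these changes was not tested.

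Same-numbered hearts did not all deviate together. For acute Ctrl and Doxo the correlations were −0.544 to 0.438 (3 of 13 over 0.1). They were −0.624 to 0.584 for Ctrl and Doxo-NMN (8 of 13) and −0.509 to 0.375 for Doxo and Doxo-NMN (7 of 13). In no 2 groups of either study was every same-numbered pair over 0.1. The numbers were therefore not taken as pairs, although this check cannot exclude a pairing of some hearts. With the replicate block 0 of the 5 genes were called in Doxo vs. Ctrl (*Nppa* −1.37, adjusted p = 0.192). The block gave 1 call, *Bmp10* at −6.84, for Doxo-NMN against Ctrl, and Doxo-NMN vs. Doxo gave −0.45 (*Nppa*), −0.94 (*Myl4*) and −0.56 (*Myl7*).

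Leaving out 1 heart at a time gave, in acute Doxo-NMN vs. Doxo, −0.16 to 0.66 for *Nppa*, −0.0164 to 0.93 for *Myl4*, −0.73 to 0.29 for *Sln* and −1.86 to 0.26 for *Bmp10*. Against Ctrl, the acute Doxo-NMN hearts gave 0 to 2 genes called, and −2.02 to −1.30 for *Nppa*, which was called without Doxo-NMN replicate 2 (adjusted p = 0.0414). In chronic Doxo vs. Ctrl 0 to 1 genes were called, *Nppa* was 1.36 to 1.97, called without Ctrl replicate 1 or Doxo replicate 4, and *Myl7* was −0.96 to 0.44. *Sln* at equal *Myl4* was 0.47 to 0.88 in Doxo vs. Ctrl and −0.83 to −0.49 in Doxo-NMN vs. Doxo. The chronic minus acute effect on *Nppa* was 3.20 to 3.84. *Nppa* in acute Doxo vs. Ctrl (−2.15 to −1.67) was called in all 40 of these fits. Depth limits *Sln* and *Bmp10* in the chronic hearts, where 12 and 11 of 17 hearts held 3 counts or fewer.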
